A study of Mus musculus with 31 samples.

Results

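The dendritic cell (DC) genes described here are 9 of the 22609 gene symbols counted in mouse masseter muscle (MM), chosen by name: the chemokines Ccl22 and Ccl17, the chemokine receptors Ccr7 and Xcr1, the growth factor receptor Flt3, the surface lectin Cd209a and the transcription factors Irf8, Batf3 and Zbtb46. Each was read in all 31 mice as CPM, its read count scaled to the size of the library. The mice were male C57BL/6J, 2 to 4 months old per the study's methods, and the left MM of each was injected once and dissected. One experiment used complete Freund's adjuvant (CFA), an oil emulsion of killed mycobacteria that causes inflammation, and the other collagenase type 2 (Col), an enzyme that degrades the collagen between muscle fibers. The groups were CFA vehicle, CFA 1d and CFA 5d (3 mice each), Col vehicle (3 mice), 0.2U Col in the groups titled 1C and RPC (4 mice each), and 10U Col at 2d (4 mice), 6d (3 mice) and 12d (4 mice). Phosphate-buffered saline was the vehicle in both experiments. Days are those in the sample titles, which for 2d and 12d are not the days that the study's text gives. The labels give no day for 1C, RPC or either vehicle group, and do not say what 1C and RPC stand for.

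Dendritic cells take up antigen in tissue, mature when they meet damage or microbial signals, and carry the antigen to lymph nodes to start T cell responses. Conventional type 1 DCs (cDC1) carry Xcr1 and need Irf8 and Batf3, conventional type 2 DCs (cDC2) and monocyte-derived DCs carry lectins such as Cd209a, and Flt3 with its ligand sustains DC development. Mature DCs switch on Ccr7, which steers them to lymphatics, and secrete Ccl22 and Ccl17, which attract Ccr4-bearing T cells. Several of these genes are active outside DCs: Irf8 is also used by monocytes and macrophages, Ccl22 is also made by macrophages, and Zbtb46 is also active in endothelium. MM is mostly muscle fibers with few resident immune cells, and in whole muscle more cells of a type and more RNA per cell cannot be told apart.

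The 2 chemokine genes are neighbors. On mm9, Ccl22 (ENSMUSG00000031779.3) lies at chr8:97269490-97275599 and Ccl17 (ENSMUSG00000031780.1) at chr8:97334353-97335935, both on the plus strand, with 58754 bases between them that hold 1 other gene, Cx3cl1. The other members lie apart: Xcr1 at chr9:123761436-123771246, Flt3 at chr5:148142317-148212065, Irf8 at chr8:123260258-123280594, Ccr7 at chr11:99005510-99016391, Cd209a at chr8:3743395-3748984, Batf3 at chr1:192922293-192932822 and Zbtb46 at chr2:181122467-181194131. All 9 are protein-coding, and no exon base of any of them overlaps an exon on the opposite strand in GENCODE vM1.

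Of these, Ccl22, Xcr1, Flt3 and Irf8 were each called higher than vehicle at 6d after 10U Col, and the sequence before their starts is shown for that reason. The bases come from the RefSeq promoter table and were placed on mm9 by exact match, written 5′ to 3′ along the gene, and end where the first annotated exon begins. Capitals mark matches on either strand to GGG, any 5 bases and CC, the core of the sites bound by NF-kB, a transcription factor of DC maturation.
Ccl22, chr8:97269334-97269489, plus strand: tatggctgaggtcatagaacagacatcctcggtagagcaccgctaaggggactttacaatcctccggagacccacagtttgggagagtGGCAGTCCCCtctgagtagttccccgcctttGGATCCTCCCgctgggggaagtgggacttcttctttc
Xcr1, chr9:123771247-123771496, minus strand: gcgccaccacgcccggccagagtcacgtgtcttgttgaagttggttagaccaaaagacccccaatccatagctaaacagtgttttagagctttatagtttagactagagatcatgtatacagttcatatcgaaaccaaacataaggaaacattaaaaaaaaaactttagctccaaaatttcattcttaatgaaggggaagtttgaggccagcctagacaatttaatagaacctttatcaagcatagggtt
Flt3, chr5:148212066-148212315, minus strand: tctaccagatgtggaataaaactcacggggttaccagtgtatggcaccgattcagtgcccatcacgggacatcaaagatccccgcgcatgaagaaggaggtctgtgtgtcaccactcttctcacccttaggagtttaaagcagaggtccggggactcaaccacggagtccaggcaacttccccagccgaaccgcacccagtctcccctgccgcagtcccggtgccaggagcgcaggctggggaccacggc
Irf8, chr8:123260008-123260257, plus strand: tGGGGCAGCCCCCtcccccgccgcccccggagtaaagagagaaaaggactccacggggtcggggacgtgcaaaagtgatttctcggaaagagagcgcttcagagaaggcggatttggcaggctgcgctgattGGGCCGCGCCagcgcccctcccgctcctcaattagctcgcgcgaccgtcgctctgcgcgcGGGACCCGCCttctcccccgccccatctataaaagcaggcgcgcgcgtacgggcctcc
The Ccl22 sequence held 2 matches, 162 and 131 bases before the RefSeq start, and that of Irf8 held 5, of which 3 overlap in 1 run. No match was found in the Xcr1 and Flt3 sequences. The window of a second RefSeq start of Irf8, chr8:123262289-123262538, held 0. Among members not called, Batf3 held 3 matches, and Ccl17, Cd209a and Zbtb46 held 0. The same letters occurred in 45.8% of the 250-base windows before 32851 RefSeq starts, so a match is common. GGAA, any 2 bases and GAAA, the composite element of PU.1 and IRF factors such as Irf8, occurred in 2.3% of windows and TGANTCA, the element of AP-1 and Batf factors, in 6.75%, and neither is in these 4 sequences.

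Gene counts per mouse ranged from 14843778 to 29076671 (median 20834472). By these depths alone 10 reads correspond to 0.344 to 0.674 CPM. The CPM of each mouse given here are also scaled by TMM factors, so the range on that scale differs (in RPC mouse 2, 3 reads of Ccl22 were 0.229 CPM). A count of 10 reads carries a counting error of 31.6%, and several members were at or under 10 reads in most mice. Reads that fell on more than 1 gene were 0.331% to 0.399% of the total in the 11 mice given 10U Col and 0.076% to 0.138% in the other 20. All 11 lay above the other 20 mice for 1.442% of genes with an exon overlap on the opposite strand and for 0.601% of genes without one, and below them for 0.511% and 0.017%. In 10U Col against Col vehicle, treatment and this difference in read assignment cannot be told apart. Comparisons between the 10U days share the assignment, and leaving genes with such an overlap out of the fits changed no call of a member. The salivary gland and skin markers (5 of 6 listed genes in the files), which are not muscle genes, summed to 13.3 to 36 CPM at 6d but to 75.6, 45300 and 17600 CPM in the 3 Col vehicle mice. The same list summed to 42.1 to 63200 CPM at 2d and to 34.8 to 585 CPM at 12d.

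Per kilobase of exon, Cd209a and Irf8 were the most abundant members. Their means over the 31 mice were 2.33 and 2.03 RPKM (CPM divided by the exon length in kilobases), followed by Batf3 at 1.02 and Zbtb46 at 0.864 RPKM. Ccl22 averaged 0.368, Ccr7 0.305, Ccl17 0.261, Flt3 0.157 and Xcr1 0.104 RPKM. Ranked by mean CPM over the 9 groups, 10U Col at 6d was highest for Ccl22, Ccr7, Xcr1, Flt3 and Irf8, while it was lowest for Cd209a. The highest group was 12d for Batf3 and Ccl17 and 0.2U RPC for Zbtb46. In all 72 pairs of neighboring groups in these orders, the ranges of the mice overlapped.

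**Figure D1:**
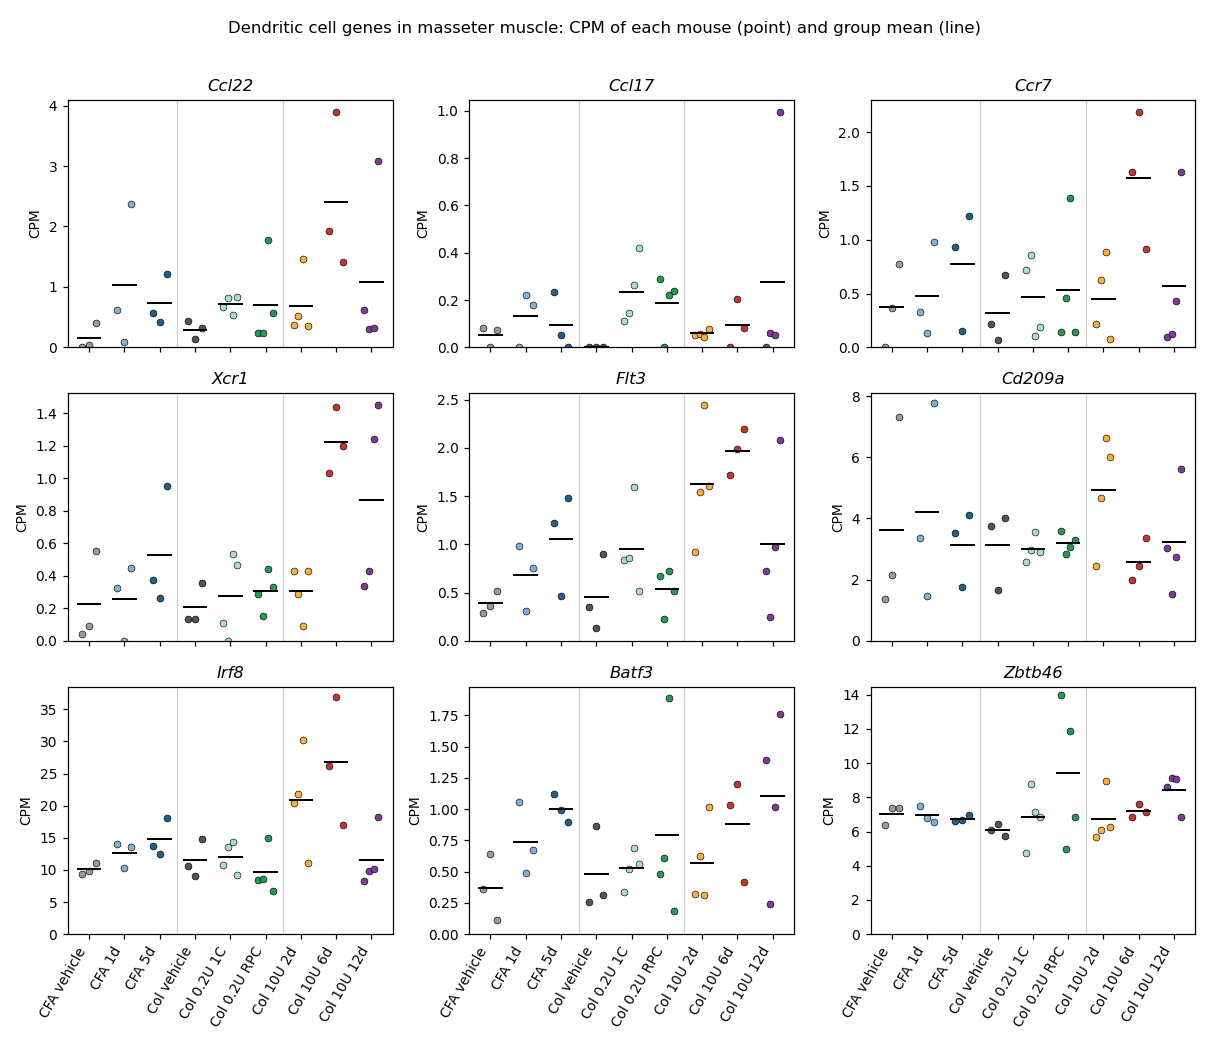
CPM of the 9 members in each of the 31 mice (points) with group means (lines), by group on the x axis. The 3 mice at 6d after 10U Col lie above all 3 Col vehicle mice for Ccl22, Ccr7, Xcr1, Flt3, Irf8 and, by a small step, Zbtb46, and 1 mouse at 12d stands above the other 3 for most members.

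At 6d after 10U Col, Ccl22, Xcr1, Flt3 and Irf8 were higher than in vehicle. These are 4 of the 8 members that could be tested (edgeR quasi-likelihood test, adjusted p under 0.05 over all genes), where 14.0% of all 14281 genes tested were called higher. None was called lower, where 13.3% of genes were. The 3 mice lay above all 3 vehicle mice for 6 of the 8, where 24.8% of genes did. The median log2 difference of the 8 was 1.59, and that of all genes 0.01. DESeq2 called 5 members, where it called 17.1% of genes higher. Each fit kept genes with 10 counts or more in 3 mice or more, a filter that a gene can pass through the group where it is high. Among the called members only Irf8 reached 10 reads in all 3 vehicle mice. Ccl22, Xcr1 and Flt3 passed the filter only through the mice at 6d, as did Ccr7 and Batf3, which were not called. The counts of 4, 5 and 6 members and the median of 1.59 thus draw on members kept by the group where they are high. They are no independent support. Ccl17 did not reach the filter in any comparison.

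Ccl22, the chemokine for Ccr4, had the largest difference. It was at 1.93, 3.90 and 1.41 CPM at 6d (45, 114 and 34 reads) and at 0.436, 0.133 and 0.313 CPM in Col vehicle (10, 2 and 7 reads). Even the lowest mouse at 6d was above the highest vehicle mouse, and the fitted log2 difference was 2.93 ± 0.58 (SE, n = 3 and 3 mice; edgeR adjusted p = 0.0135). Ccl17, its neighbor on chr8, had 0, 6 and 2 reads at 6d and 0 reads in every Col vehicle mouse, too few for a comparison.

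Xcr1, the receptor for Xcl1 that marks cDC1, was at 1.03, 1.44 and 1.20 CPM at 6d and at 0.131, 0.133 and 0.358 CPM in vehicle. The groups did not overlap, with a log2 difference of 2.47 ± 0.52 (edgeR adjusted p = 0.0161). With 24, 42 and 29 reads at 6d and 3, 2 and 8 in vehicle, Xcr1 entered the test only through the group where it is high. The same holds for Ccl22, for Flt3 (8, 2 and 20 reads in vehicle) and for Ccr7 (5, 1 and 15). Calls of such members, and their lack of overlap, are no independent support. Ccr7, the receptor that leads mature DCs to lymph nodes, was at 1.63, 2.19 and 0.913 CPM against 0.218, 0.0665 and 0.671 CPM. The groups did not overlap, but with a log2 difference of 2.19 ± 0.70 Ccr7 missed the threshold (edgeR adjusted p = 0.0532, unadjusted p = 0.0152).

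Flt3, the receptor tyrosine kinase of DC progenitors and cDCs, was at 1.72, 1.99 and 2.20 CPM at 6d. In vehicle it was at 0.349, 0.133 and 0.895 CPM, and its log2 difference was 2.00 ± 0.60 (edgeR adjusted p = 0.0433). Irf8, a transcription factor of cDC1 and monocytes, was the only called member with over 100 reads in every mouse of both groups. It was at 26.2, 37.0 and 17.0 CPM at 6d against 10.6, 9.05 and 14.8 CPM in vehicle, a log2 difference of 1.18 ± 0.32 (edgeR adjusted p = 0.0323). The lowest mouse at 6d was only slightly above the highest vehicle mouse.

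The remaining members were not called at 6d. Zbtb46, a transcription factor of the cDC lineage, was at 6.87, 7.63 and 7.13 CPM against 6.10, 6.45 and 5.73 CPM, apart by a narrow margin (log2 difference 0.22 ± 0.21). Batf3, the partner of Irf8 in cDC1, was at 1.03, 1.20 and 0.415 CPM against 0.261, 0.865 and 0.313 CPM, and the groups overlapped (log2 difference 0.91 ± 0.61). Cd209a, the mouse relative of DC-SIGN, was at 1.98, 2.43 and 3.36 CPM against 3.75, 1.66 and 4.03 CPM, with a log2 difference of -0.32 ± 0.43.

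**Figure D2:**
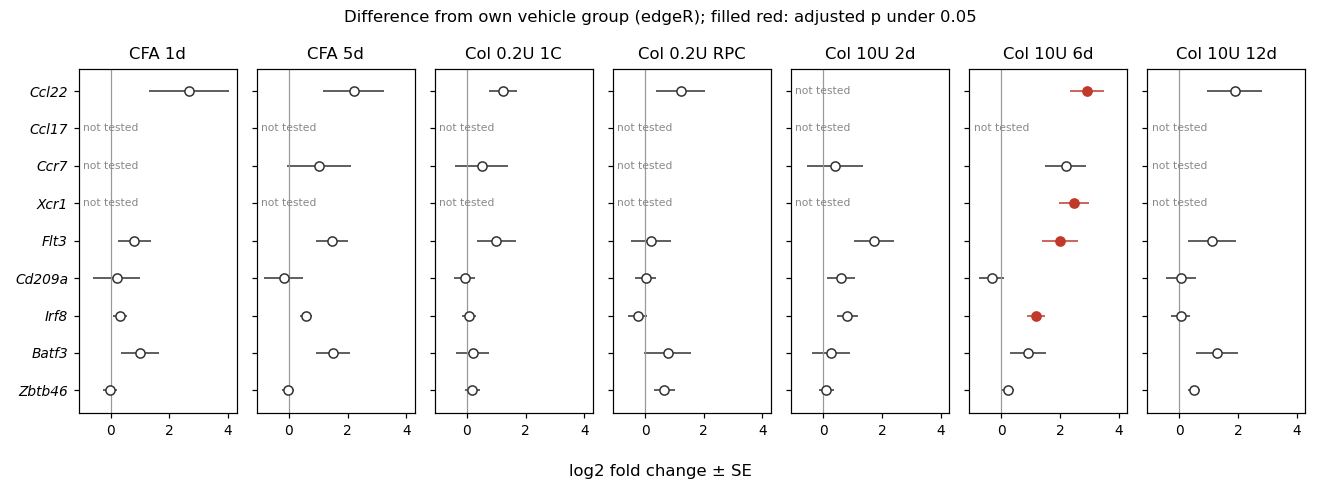
Log2 fold change of each member against its own vehicle group (points, with SE as bars), 1 panel per treated group; filled red points passed the edgeR test at an adjusted p under 0.05. The 4 red points are Ccl22, Xcr1, Flt3 and Irf8 at 6d after 10U Col, and the members without a point had too few reads.

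The calls at 6d rest on 3 mice a group and are not firm. Leaving out 1 mouse at a time left 0 to 5 members called: 0 without 6d mouse 2, 1 without 6d mouse 1, 2 without 6d mouse 3, vehicle mouse 1 or vehicle mouse 2, and 5 without vehicle mouse 3, which adds Ccr7. Ccl22 passed in 5 of these 6 fits and had an adjusted p of 0.0594 without 6d mouse 2. Irf8 passed in 2 of 6 and Flt3 in 1 of 6. Xcr1 passed in the 3 fits that left out a vehicle mouse, and it could not be tested when a 6d mouse was left out, since only the 3 mice at 6d reached 10 reads. Since gland tissue differed so much, the mice at 6d were also set against the 3 vehicle mice of both experiments whose gland and skin markers summed to under 1000 CPM (2 CFA vehicle and 1 Col vehicle), a choice made after the data were seen. Then 5 members were called higher in edgeR, with log2 differences of 3.86 ± 0.94 for Ccl22, 3.73 ± 0.48 for Xcr1, 3.01 ± 0.79 for Ccr7, 2.54 ± 0.33 for Flt3 and 1.41 ± 0.26 for Irf8. This set leaves out CFA vehicle mouse 3 and Col vehicle mouse 3, the highest of their groups for 6 and 5 members, as well as Col vehicle mouse 2, the lowest of its group for 5, and keeps CFA vehicle mouse 1, the lowest for 7. The gland level and the members' own levels in these vehicle mice cannot be told apart here, and the larger differences are no added support. The shares of all genes called in this fit and in those with 1 mouse left out are not given here. Their counts of members therefore cannot be set against a background.

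Other genes listed for DC maturation were also higher at 6d than in vehicle, from lists chosen with earlier results of these data known. Of 12 listed, 10 could be tested at 6d against vehicle and 9 were called higher, with none lower, where 14.0% of all genes were called higher. The 12 genes summed to 227 to 287 CPM at 6d, to 82.1 to 103 CPM in Col vehicle and already to 100 to 308 CPM at 2d (median 274 CPM). Macrophage and monocyte markers were higher as well, at 1100 to 2200 CPM at 6d against 109 to 407 CPM in vehicle. Which cells the RNA of these lists came from was not tested. Marcksl1, a regulator of the actin skeleton, averaged 27.2 CPM against 5.4 CPM (log2 difference 2.31 ± 0.33, edgeR adjusted p = 0.00516), and Fscn1, the actin bundler of mature DC dendrites, 110 CPM against 31.7 CPM (1.77 ± 0.26). Nfkb2, a subunit of NF-kB, and Socs2, a feedback inhibitor of cytokine signaling, were higher by 1.27 ± 0.19 and 1.41 ± 0.21 on the log2 scale. Antigen presentation genes were called higher in 7 of 8 cases: the class II genes H2-Ab1, H2-Aa and H2-Eb1 by 1.57 ± 0.22, 1.19 ± 0.18 and 1.17 ± 0.18, and Itgax, which encodes CD11c, by 3.21 ± 0.59.

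The genes of single DC types were less uniform, beside 14.0% of all genes called higher and 13.3% called lower. With 1 call each, the cDC1 and plasmacytoid DC lists below are near that share, which is no result about these lists. Among 8 other cDC1 genes, 1 was called higher, namely Clec9a, the receptor for dead cells on cDC1, at 2.85 CPM against 0.379 CPM (log2 difference 2.79 ± 0.75, edgeR adjusted p = 0.032). Of 9 tested genes of cDC2 and monocyte-derived DCs, 3 were called higher and 3 lower. Sirpa, also a macrophage gene, was higher by 1.66 ± 0.29 on the log2 scale, while Cd209d, a lectin related to Cd209a, Cd24a and Klf4 had log2 differences of -3.32 ± 0.67, -1.38 ± 0.29 and -1.08 ± 0.25. The others called higher, named after their values were seen, were Ccr2, the receptor of inflammatory monocytes (2.33 ± 0.59), and Notch2 (0.86 ± 0.26). Of 6 plasmacytoid DC genes, 1 was called, Tcf4, at a log2 difference of 0.76 ± 0.20. Of the 2 Langerhans cell genes, Epcam, an epithelial gene as well, could be tested and was lower by a log2 difference of -5.16 ± 1.29 beside the fall in gland markers.

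None of the ligands and receptors listed beside the members passed. Besides partners of members, this list holds the growth factor GM-CSF and its receptor chains, which pair with none of the 9. Of its 10 genes, 5 were tested and 0 called in edgeR, where 14.0% of all genes were called higher and 13.3% lower. Ccbp2, the decoy receptor that removes Ccl22 and Ccl17, averaged 0.633 CPM at 6d against 2.50 CPM in vehicle, with overlapping groups (log2 difference -2.02 ± 0.67, edgeR adjusted p = 0.0588), and Ccrl1, that for the Ccr7 ligands, 1.03 against 3.76 CPM (-1.92 ± 0.89, adjusted p = 0.136). Csf2ra and Csf2rb, the receptor chains for the growth factor GM-CSF, averaged 18.3 against 5.53 CPM and 22.2 against 8.57 CPM with edgeR adjusted p = 0.0632 and 0.0544. The direct partners that follow are named after their values were seen. Flt3l, the ligand of Flt3, averaged 3.59 CPM at 6d against 3.65 CPM (log2 difference -0.05 ± 0.27). Ccr4, the receptor for Ccl22 and Ccl17, was at 0 in all 3 mice at 6d and also in CFA vehicle. It had too few reads to be tested, so no loss at 6d can be read from this. The Ccr7 ligands Ccl19 and Ccl21a were listed at 0 in all 31 mice. Both have near-identical copies in the mouse genome and reads that align to more than 1 place were not counted, so these zeros cannot be read as absence.

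Markers of other cells moved at 6d too, and their part in the members' difference was not tested. The shares of all genes called were 14.0% higher and 13.3% lower. Of 8 macrophage and monocyte markers, 7 were called higher, and their summed level was 1100 to 2200 CPM against 109 to 407 CPM in vehicle. Of the 6 T and NK cell markers 2 were tested and Cd4 was called, with sums of 5.23 to 10.9 CPM against 0.665 to 3.76 CPM. The 4 of 6 bone marrow progenitor genes tested were all lower (1.4 to 2.86 CPM against 6.98 to 734 CPM), as were the 4 tested gland and skin genes and 2 of 4 tested neutrophil genes (12.4 to 15.7 CPM against 6.52 to 709 CPM). Of the B cell markers 1 of 6 was tested and was not called (1.66 to 1.78 CPM against 0.798 to 15.3 CPM). The lymph node and naive lymphocyte list, with Ccl19 and Ccl21a at 0 in every mouse, had 0 of 3 called and sums of 1.37 to 3.25 CPM against 1.2 to 13.7 CPM. Muscle genes were present throughout, at 29600 to 49500 CPM at 6d and 85500 to 123000 CPM in vehicle, with Ckm and Myh4 called lower.

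**Figure D3:**
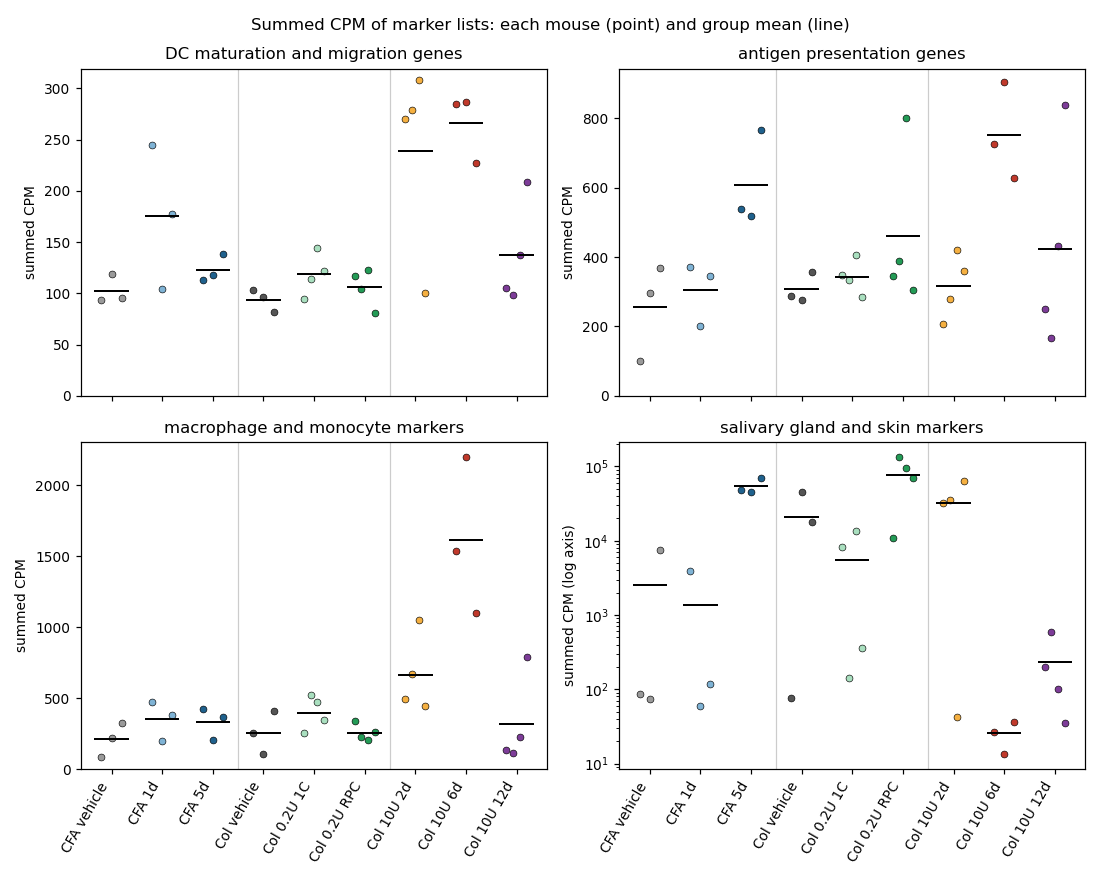
Summed CPM of 4 gene lists in each mouse (points) with group means (lines); the y axis of the gland and skin panel is logarithmic. DC maturation genes sum to 227 to 287 CPM at 6d after 10U Col and are as high in 3 of 4 mice at 2d. Antigen presentation genes sum to 627 to 903 CPM at 6d and 518 to 767 CPM at CFA 5d, and reach 802 CPM in RPC mouse 3 and 839 CPM in 12d mouse 4. Macrophage genes sum to 1100 to 2200 CPM at 6d, and reach 1050 CPM at 2d and 787 CPM at 12d. Gland genes differ by orders of magnitude within several groups.

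The next comparisons asked how the members changed with time after 10U Col. At 2d against vehicle 0 of 6 tested members were called in edgeR (1.14% of genes called higher, 1.08% lower), with 2 at an unadjusted p under 0.05 and 0 in DESeq2. Flt3 was at 0.916, 1.54, 2.45 and 1.61 CPM, above every vehicle mouse (log2 difference 1.73 ± 0.67, edgeR adjusted p = 0.12). It was the only 1 of 6 tested members to lie wholly above vehicle, where 11.7% of genes did. Flt3 passed the filter here only through the mice at 2d. Irf8 was at 20.5, 21.9, 30.2 and 11.1 CPM, and the last of these lay within the vehicle range (0.82 ± 0.35, adjusted p = 0.15). Without 2d mouse 4, Irf8 was called. Cd209a was at its highest group mean here, 4.93 ± 1.86 CPM (SD, n = 4).

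From 2d to 6d, Xcr1 was called higher, 1 of 8 tested members, where 4.68% of genes were, and none was called lower (4.05% of genes). Its values at 2d were 0.431, 0.285, 0.089 and 0.432 CPM, all under the lowest of the 3 mice at 6d (log2 difference 1.99 ± 0.50, edgeR adjusted p = 0.0494). With 8, 5, 2 and 11 reads at 2d, Xcr1 entered this test too only through the group where it is high. Its call is therefore no independent support. Ccr7 at 2d, 0.216, 0.627, 0.890 and 0.0785 CPM, was also under all mice at 6d, but was not called (1.82 ± 0.71, adjusted p = 0.148). For these 2 of 8 all mice at 6d lay above all mice at 2d, as they did for 12.4% of genes. Ccr7 too passed the filter only through the mice at 6d, so this count is no independent support. Ccl22 was at 0.377, 0.513, 1.47 and 0.353 CPM at 2d and overlapped 6d through mouse 3 (1.83 ± 0.61, adjusted p = 0.102). Cd209a had a difference of -0.91 ± 0.39, while Flt3 and Irf8 differed by 0.29 ± 0.37 and 0.37 ± 0.36. By these estimates Flt3 and Irf8 were nearer to their 6d level at 2d than Xcr1 or Ccr7 were, which was not tested. The Xcr1 call was lost without 2d mouse 1 or 2 or any mouse at 6d (adjusted p of 0.0879 to 0.192), and 2 members, Ccl22 and Xcr1, were called without 2d mouse 3, as they were in DESeq2, which called 8.84% of genes higher. Of the lists, antigen presentation genes were called higher in 6 of 8 cases and DC maturation genes in 1 of 10, Cd83, by a log2 difference of 2.21 ± 0.26. Macrophage markers were called higher in 2 of 8 cases, with sums of 443 to 1050 CPM at 2d, and the part of these cells in the Xcr1 difference was not tested.

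From 6d to 12d, Irf8 was called lower, 1 of 8 tested members, where 13.0% of genes were, and none was called higher (13.4% of genes). It was at 8.22, 9.78, 10.1 and 18.3 CPM at 12d, so that mouse 4 alone overlapped the range of 6d (log2 difference -1.18 ± 0.33, edgeR adjusted p = 0.0366). Mouse 4 also stood apart for the others. Its Ccl22 was 3.08 CPM against 0.306 to 0.625 CPM in the other 3, its Ccr7 1.63 against 0.0962 to 0.431, its Flt3 2.08 against 0.245 to 0.970, and its Ccl17 0.996 CPM (22 reads) against 0 to 0.0612 CPM. It was the highest of its group for 8 of the 9 members and the lowest for Zbtb46. Its macrophage markers summed to 787 CPM and its T and NK markers to 9.05 CPM, while the medians of the 4 mice were 181 and 1.69 CPM. Without mouse 4, 4 members were called lower than at 6d, namely Ccl22, Ccr7, Flt3 and Irf8 (share of all genes not given here). Without 12d mouse 1, 2 or 3 or without 6d mouse 1 or 2, none was. Against vehicle, 0 of 6 members were called at 12d in edgeR or DESeq2 (0.762% of genes higher, 0.466% lower), with 1 at an unadjusted p under 0.05. That was Zbtb46, at 8.61, 9.11, 9.05 and 6.88 CPM, above all vehicle mice as were 9.62% of genes (log2 difference 0.50 ± 0.19, edgeR adjusted p = 0.246).

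Low-dose Col gave no call. In 1C, 0 of 7 tested members were called in edgeR or DESeq2 (0.0% of genes in either direction), and 1 had an unadjusted p under 0.05. It was Ccl22, at 0.668, 0.811, 0.531 and 0.838 CPM, above all 3 vehicle mice (log2 difference 1.23 ± 0.49, edgeR adjusted p = 0.372). The groups were apart above vehicle for 1 of the 7, and for 4.31% of genes. Ccl22 passed the filter here only through the mice of 1C. In RPC, 0 of 6 were called by edgeR or DESeq2 (0.0% of genes), with 0 at an unadjusted p under 0.05. Mouse 3 of RPC was the highest of its 4 for 6 members, with Ccl22 at 1.78 and Ccr7 at 1.39 CPM, and Zbtb46 ranged there from 4.97 to 14 CPM.

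CFA gave no call either. At 1d, 0 of 6 tested members were called in edgeR or DESeq2 (0.0% of genes), none at an unadjusted p under 0.05. Ccl22 was at 0.614, 0.0889 and 2.37 CPM against 0, 0.0456 and 0.405 CPM in CFA vehicle, a wide spread with a log2 difference of 2.67 ± 1.37. At 5d, 0 of 7 were called by edgeR or DESeq2 (1.06% of genes higher, 0.0428% lower), and Batf3, Flt3 and Irf8 had an unadjusted p under 0.05. Batf3 was at 1.12, 0.991 and 0.899 CPM against 0.363, 0.638 and 0.110 CPM, Irf8 at 13.7, 12.5 and 18.1 against 9.37, 9.80 and 11.1 CPM, and Ccl22 at 0.562, 0.417 and 1.22 CPM. For these 3 of 7 the groups were apart above vehicle, as were 14.0% of genes. Their log2 differences were 1.51 ± 0.58, 0.59 ± 0.21 and 2.21 ± 1.04, with edgeR adjusted p = 0.301, 0.265 and 0.41. Of these, Batf3 and Ccl22 passed the filter only with the help of the mice at 5d. Antigen presentation genes had 0 of 8 called (Itgax by 2.95 ± 0.53, adjusted p = 0.0565) at sums of 518 to 767 CPM against 101 to 369 CPM. All 3 mice at 5d had gland and skin markers of 45800 to 69300 CPM against 73.9 to 7490 CPM in vehicle, and their part was not tested. From 1d to 5d, 0 of 7 members were called (4.85% of genes higher, 0.99% lower), with 0 at an unadjusted p under 0.05 and 0 in DESeq2.

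The differences from own vehicle were compared between the 2 experiments, at days that are near but not the same. In the contrast of 10U Col at 6d with CFA at 5d, each against its own vehicle, 0 of 8 members were called in edgeR (4.34% of genes higher, 6.96% lower), 0 had an unadjusted p under 0.05, and 0 were called by DESeq2. In that of 2d with CFA at 1d, 0 of 8 were called in edgeR or DESeq2 (0.0541% and 0.0406%), again with 0 at an unadjusted p under 0.05. The estimated contrasts had both signs, with 6 of 8 above 0 and 2 below in each, namely Batf3 at -0.62 and Cd209a at -0.14 for 6d with 5d, and Ccl22 at -1.59 and Batf3 at -0.76 for 2d with 1d. No difference between the agents was shown for any member. Between the 2 vehicle groups 0 of 3 tested members were called in edgeR or DESeq2 (0.0426% of genes higher, 0.0% lower), with 0 at an unadjusted p under 0.05. Agent and experiment cannot be told apart. The unlike days, the read assignment of the 10U mice and the differing gland and skin markers cannot be separated from them either.

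Across the 31 mice, Ccl22 followed Ccr7 most closely among the members (Pearson r = 0.81, Spearman rho = 0.72 of log2(CPM + 0.5)), and the deviations from the group means correlated as well (r = 0.78). For Flt3 and Irf8 r was 0.77 and rho 0.79, with r = 0.57 for the deviations. Zbtb46 had an r of 0.23 or less with every other member, and that of Cd209a with Batf3 was -0.02. The gene most like Ccl22 among 14518 was Ciita, the class II transactivator, then Klrd1, an NK cell receptor (r = 0.83 for both). Xcr1 was most like Peg10 and Pik3r3 (r = 0.81 for both), Flt3 like Tlr8 and Tlr7 (r = 0.90 for both), and Irf8 like Apobec1 and Bcl2a1b (r = 0.92 and 0.91). The points share groups, depth and tissue makeup, so these values are descriptions.

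**Figure D4:**
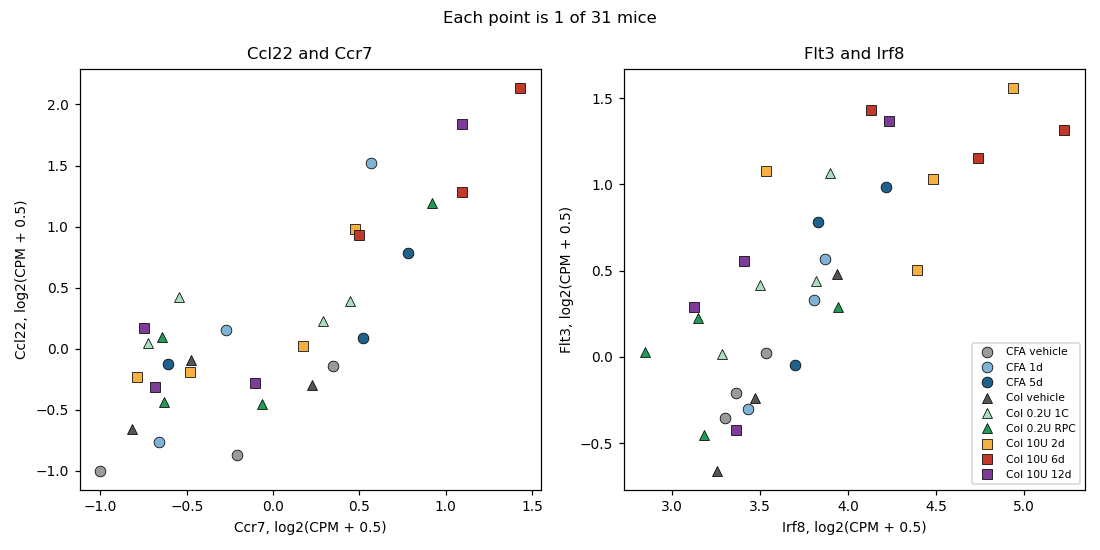
Ccl22 against Ccr7 (left) and Flt3 against Irf8 (right), each axis in log2(CPM + 0.5), 1 point per mouse with groups by color and shape. Mice with more of 1 gene tended to have more of the other (r = 0.81 and 0.77, and 0.78 and 0.57 for the deviations from the group means pooled over groups). This did not hold in every group: at 6d, mouse 3 had the highest Flt3 and the lowest Irf8.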

How the data were processed

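Poly(A) RNA of 31 masseter muscles was sequenced with stranded TruSeq libraries as single-end reads of 50 bases. The deposited files hold raw read counts per gene, made by the authors with TopHat2 on mm9 and, per the labels' processing notes, HTSeq. The annotation and strand setting are not given in the sources used here. Each table ends in 5 lines that name no gene, left out of library sizes: reads with no feature (3.943% to 12.127%), ambiguous (0.076% to 0.399%) and not uniquely aligned (34.577% to 47.924%) among them. No 2 of the 465 pairs of tables were identical (highest r 0.9952).

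Per-mouse CPM used TMM factors over 31 libraries (edgeR 4.0.16, R 4.3.3). RPKM used union exon lengths of GENCODE vM1, where 21627 symbols matched by name and 87 by synonym. Each comparison was fitted on its own libraries over every gene that reached 10 counts in 3 or more of them (edgeR glmQLFit and glmQLFTest, two-sided, Benjamini-Hochberg over all tested genes). Alternatives were DESeq2 1.42.0, its size factors, no low-count filter, 1 fit over 31 libraries, pooled vehicles, the thresholds in the study's methods (2-fold, 1 RPKM), a block on replicate number, leaving out each mouse, and 2 added after the data were seen: leaving out genes with an opposite-strand exon overlap, and low-gland vehicle mice. Per the study's methods each sample is a mouse, and p-values measure the spread between mice. Same-numbered mice deviated together in every pair (r over 0.1) only in CFA 1d against CFA vehicle (0.165 to 0.592) and between the vehicle groups (0.115 to 0.677). The members and gene lists were chosen with earlier results of these data known. All 9 members are named, up to 4 genes per other list with the smallest p, and for each called member the 2 genes of highest r. Of the listed markers, Ly6g and Bpifa2 were not matched. RefSeq promoters matched 8 members.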

Additional observations from a re-analysis of the deposited data

Results flagged for a closer look

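Of 36 sets of 4 mice examined (9 members in the 4 groups of 4), 3 had 1 mouse far from the others by Dixon's criterion, where chance gives about 1 in 20. Ccl17 was at 0.996 CPM in 12d mouse 4 after 10U Col, with the other 3 at 0 to 0.0612 CPM. Ccl22 was at 3.08 CPM in the same mouse, with the others at 0.306 to 0.625 CPM. Ccl22 was at 1.47 CPM in 2d mouse 3, with the others at 0.353 to 0.513 CPM. In 12d mouse 4, antigen presentation genes summed to 839 CPM and DC maturation genes to 209 CPM, the highest of that group. In 2d mouse 3, gland and skin markers summed to 42.1 CPM where the other 3 mice had 32100 to 63200 CPM. The part of these differences in the values of the chemokines was not tested.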

How the results depend on the processing

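Of 26 counts of called members, 22 stayed at 0 under every alternative run, and Ccl22, Ccr7, Xcr1, Flt3 and Irf8 reversed direction in none of the 8 differences rerun (5 at 6d against vehicle, 2 at 6d against 2d and 1 at 12d against 6d). For 10U Col at 6d against vehicle, 4 became 2 (Ccl22, Irf8) with the study's thresholds, and 0 to 5 with 1 mouse left out. At 2d against vehicle, 0 became 2 (Flt3, Irf8) with 1 fit over all libraries and 2 with pooled vehicles, and 0 to 1 with 1 mouse left out. For 6d against 2d, 1 became 2 with DESeq2 (Ccl22, Xcr1), 0 with no low-count filter, 0 with 1 fit over all libraries, and 0 to 2 with 1 mouse left out. For 12d against 6d, 1 lower became 0 to 4 with 1 mouse left out. With a block on replicate number, counts were 0 at 6d and 1 (Irf8) at 2d against vehicle, 0 for 6d against 2d and 4 for 12d against 6d. In these comparisons same-numbered mice did not deviate together in every pair (lowest r -0.226, -0.249, -0.226 and -0.346, highest 0.046, 0.135, 0.156 and 0.318). With 3 pairs each, whether the numbers are a pairing cannot be told. In the 2 comparisons where same-numbered mice did deviate together in every pair, the block changed no call. At 6d against vehicle DESeq2 called 5 members (17.1% of genes higher). Causes of these changes were not tested. Apart from DESeq2 at 6d, the shares of all genes called in the alternatives are not given here, so these counts cannot be set against them. Depth limits Ccl17 most, with 90 reads over all 31 mice.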
